A study of Homo sapiens with 10 samples.

Results

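The 10 iron handling genes FTH1, FTL, TFRC, TF, SLC40A1, SLC11A2, ACO1, IREB2, NCOA4 and STEAP3 were followed in ARPE-19 cells, an established human RPE cell line, under control and high glucose conditions. They were chosen by gene symbol, and each has 1 of the 22626 rows of the deposited read count table. RNA was sequenced after 48 h in control medium, which held 5.5 mM glucose and 32 mM mannitol (control group, n = 5 libraries), or in medium with 37.5 mM glucose (HG group, n = 5 libraries). The HG libraries are called HG_1 to HG_5 after their columns, and no genetic change was made in either group. Mannitol keeps the number of dissolved molecules alike in both media. Glucose and mannitol both differ between the groups, so their effects cannot be told apart, and the groups are cultures of 1 cell line, not RPE tissue.

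Most cells take up iron bound to transferrin, the product of TF, through the transferrin receptor encoded by TFRC. In the endosome the iron is released and reduced by STEAP3, and the transporter DMT1, encoded by SLC11A2, carries it into the cytosol. Iron that is not used at once is stored in ferritin, a shell of heavy (FTH1) and light (FTL) subunits, which NCOA4 delivers to the lysosome for breakdown, while ferroportin (SLC40A1) exports iron from the cell. The iron regulatory proteins, encoded by ACO1 and IREB2, bind a hairpin called the iron-responsive element when iron is scarce. Binding ahead of the coding sequence blocks translation, as in the ferritin mRNAs, and binding behind it protects the mRNA from decay, as in TFRC. The RPE handles much iron because it takes up the outer segments that photoreceptors shed.

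The elements of the members are shown because they tie storage, export and uptake to the same regulators. The UTRs of GENCODE release 29 (GRCh38) were searched on the sense strand for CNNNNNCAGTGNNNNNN in which the 5 bases before the loop CAGTGN pair with the 5 bases after it, G with T pairs allowed. Capitals mark the 6 bases of the loop, and 6 bases are added at each end of the stem.
FTH1, 5′ UTR, chr11:61967574-61967602, minus strand: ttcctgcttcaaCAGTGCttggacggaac
FTL, 5′ UTR, chr19:48965335-48965363, plus strand: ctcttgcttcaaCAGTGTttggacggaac
SLC40A1, 5′ UTR, chr2:189580661-189580689, minus strand: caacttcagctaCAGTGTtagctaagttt
TFRC, 3′ UTR, chr3:196050979-196051007, minus strand: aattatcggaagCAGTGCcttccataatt
TFRC, 3′ UTR, chr3:196050575-196050603, minus strand: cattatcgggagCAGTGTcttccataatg
TFRC, 3′ UTR, chr3:196050510-196050538, minus strand: ctgtatcggagaCAGTGAtctccatatgt
TFRC, 3′ UTR, chr3:196050463-196050491, minus strand: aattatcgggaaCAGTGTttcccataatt
SLC11A2, 3′ UTR, chr12:50988268-50988297, minus strand: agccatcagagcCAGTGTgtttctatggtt

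The SLC11A2 site was found only when 1 unpaired base was allowed in the stem. It lies in 5 of 18 coding SLC11A2 transcripts, while the TFRC sites lie in 3 of 4, the FTH1 site in 7 of 8 and the SLC40A1 site in 1 of 5. The pattern with a full stem was present in the 5′ UTR of 36 of 19684 coding genes (0.183%) and in the 3′ UTR of 132 (0.671%). With 1 unpaired base it was present in a 3′ UTR of 223 genes (1.13%). The 3′ UTRs of TF and IREB2 also hold a match, and a match describes letters only, not a site that a protein binds.

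Total counts were between 32448991 and 45864176 per library. Each library counted as 1 replicate. The libraries of a group differed from each other by more than sampling noise, which does not show that they came from separate cultures. TXNIP, which glucose induces, had 27 to 55 counts in the control libraries and 177 to 581 in the HG libraries, which matches the labels. Control 2 and HG_1 stood apart, with slopes of level on GC content of 0.166 and 0.184 log2 units per 10 percentage points, while those of the other 8 libraries were between -0.0910 and -0.00407. Of 12 RPE markers 8 were above 1 CPM (counts scaled by the normalized library size), and their summed level was 2830 to 3590 CPM in the control group and 1800 to 2470 CPM in the HG group, mostly KRT8 and KRT18, while RPE65, TYR and TTR were at or near 0. BEST1, which overlaps FTH1, is among these markers, with 8707 and 18223 counts in control 1 and control 4 and 24 to 300 counts in the other 8 libraries of both groups, and without it the sums were 2830 to 3450 CPM and 1790 to 2460 CPM. The summed level of 6 immune markers was 60.8 to 88.7 CPM against 105 to 149 CPM, almost all of it CD68, with PTPRC and CD3E at or near 0. Fibroblast markers summed to 207 to 255 CPM against 106 to 131 CPM, almost all of it PDGFRB and COL1A1, the 2 of 8 above 1 CPM. COL1A2, COL3A1, DCN, LUM, PDGFRA and THY1 were at or near 0. Endothelial markers summed to 2.93 to 5.05 CPM against 2.13 to 3.13 CPM, mostly KDR, and erythroid markers to 0 CPM against 0 to 0.0608 CPM. The part of these differences in the results below was not tested.

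Of the 10 iron handling genes 9 passed the filter on low counts, all but TF. SLC11A2, TFRC and ACO1 rose in the HG group, none fell, by DESeq2 as well, and the other 6 did not pass an adjusted p of 0.05 (quasi-likelihood test of edgeR, adjusted by Benjamini-Hochberg over 14936 rows). Over all rows tested, 2303 passed (15.4%), 1138 of them higher (7.62%) and 1165 lower (7.8%) in the HG group. The 5 HG libraries lay wholly above the 5 control libraries for the same 3 genes, and over all rows the groups did not overlap, in either direction, in 2038 (13.6%). At an unadjusted p of 0.05 in edgeR 4 members were higher, with SLC40A1 the fourth, and 0 lower, where 14.1% of all rows were higher and 14.4% lower. With DESeq2, 9.36% of all rows with an adjusted p passed as higher and 9.92% as lower. SLC11A2 alone also exceeded a fold change of 1.5, which 551 rows did (3.69%). The median log2 fold change was 0.13 over the 9 members and 0.00132 over all rows tested. In such bulk libraries a change in the kinds of cells and a change in RNA per cell cannot be told apart.

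**Figure D1:**
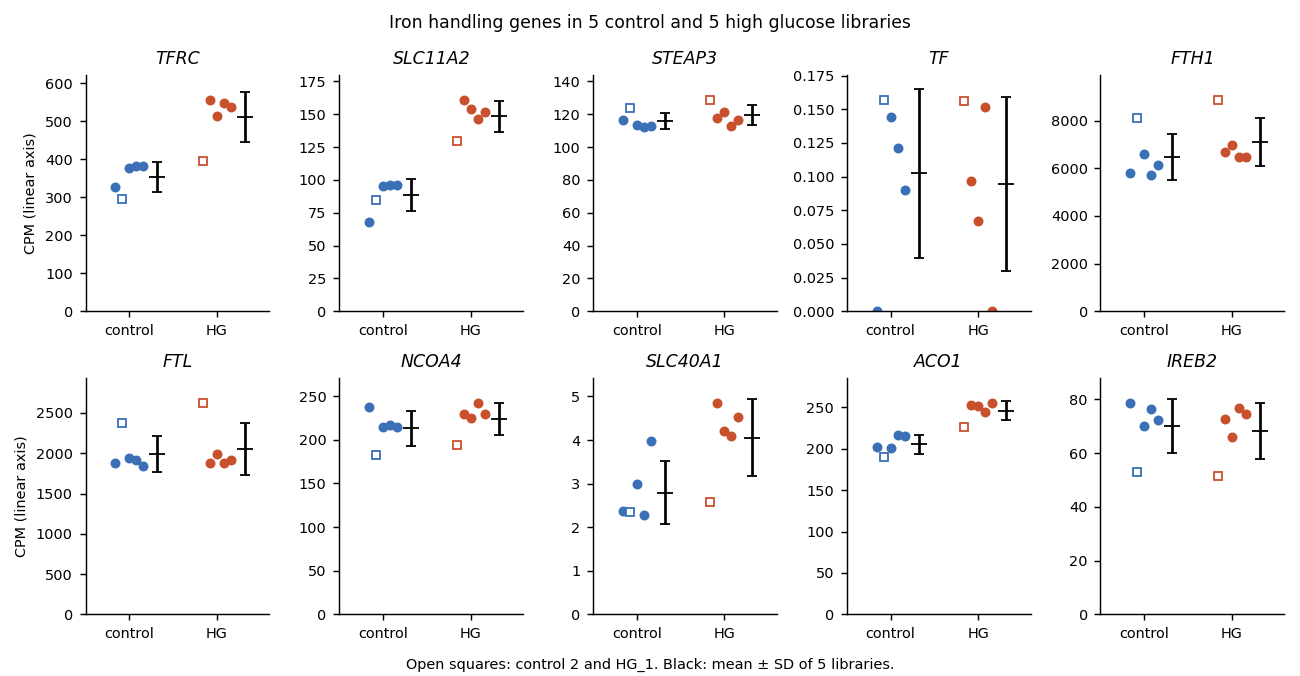
CPM of each of the 10 iron handling genes in each library (y axis, linear, from 0), with control libraries in blue, HG libraries in red and the mean ± SD of 5 libraries in black. The HG points of TFRC, SLC11A2 and ACO1 lie above all control points, while those of the other genes overlap, and control 2 and HG_1 (open squares) are the highest for FTH1 and FTL and the lowest for IREB2.

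The uptake genes SLC11A2 and TFRC had the largest changes that passed the test. SLC11A2, the ferrous iron transporter, was at 68.2, 84.8, 95.6, 96.1 and 96.4 CPM in control 1 to 5 and at 130, 161, 154, 146 and 151 CPM in HG_1 to HG_5. Every HG library stood well above the highest control, and HG_1 was the lowest of the 5. The mean rose from 88.2 ± 12.2 to 148.5 ± 11.8 CPM (SD, n = 5 each). This 1.68-fold rise was 0.75 on the log2 scale (standard error 0.0977, 95% interval 0.53 to 0.98, edgeR adjusted p = 0.000684). An exact two-sided permutation test of its log2 CPM gave p = 0.00794, the smallest it can give. The size of this change was at percentile 94.7 of all rows tested. SLC11A2 lies at chr12:50979401-51028566, and no 100-base window of its longest coding transcript occurs in another gene.

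TFRC, the transferrin receptor, was at 326, 296, 377, 382 and 382 CPM in control 1 to 5 and at 396, 556, 514, 549 and 536 CPM in HG_1 to HG_5. HG_1 stood only just above the highest control, and the other 4 HG libraries were far above it. The mean rose from 353 ± 39.4 to 510 ± 65.7 CPM (SD, n = 5 each), a log2 fold change of 0.53 (standard error 0.103, 95% interval 0.29 to 0.77, edgeR adjusted p = 0.00586). The exact permutation test again gave its smallest p, 0.00794. Without control 2 and HG_1 the log2 fold change of TFRC was 0.56, and with the trend on GC content and length removed it was 0.52. TFRC lies at chr3:196027183-196082189.

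STEAP3, the endosomal reductase, was at 116, 124, 114, 112 and 113 CPM in control 1 to 5 and at 129, 118, 121, 113 and 117 CPM in HG_1 to HG_5. The groups overlapped, and control 2 and HG_1 were the highest of each. The log2 fold change was 0.05 with a 95% interval of -0.06 to 0.16 (edgeR adjusted p = 0.599), so a rise as large as that of ACO1 lies outside the interval. STEAP3 lies at chr2:119223831-119265652.

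TF, the carrier that the receptor binds, had 0, 7, 6, 4 and 4 counts in control 1 to 5 and 6, 4, 3, 5 and 0 in HG_1 to HG_5. It was too low to be tested in either group. A count of 0 allows up to 3 counts, which correspond to 0.091 CPM in control 1 and 0.0912 CPM in HG_5, the libraries without a count of TF, and such limits cover counting error only. TF lies at chr3:133745956-133796640 and overlaps SRPRB on the same strand.

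The ferritin genes were among the most abundant of the table, and their levels did not separate the groups. FTH1, the heavy subunit, was at 5803, 8108, 6586, 5707 and 6150 CPM in control 1 to 5 and at 8871, 6698, 6972, 6476 and 6477 CPM in HG_1 to HG_5. Its log2 fold change was 0.13 with a 95% interval of -0.13 to 0.40 (edgeR adjusted p = 0.504). FTL, the light subunit, was at 1879, 2377, 1936, 1911 and 1836 CPM in control 1 to 5 and at 2623, 1875, 1985, 1874 and 1917 CPM in HG_1 to HG_5. For both subunits HG_1 was the highest library of all and control 2 the second, and the other 8 lay close together. The log2 fold change of FTL was 0.05 with a 95% interval of -0.20 to 0.29 (edgeR adjusted p = 0.824), and it was -0.03 with the GC trend removed. The value of FTH1 was 0.04 without HG_1 and 0.23 without control 2, and that of FTL -0.05 and 0.12, none of which passed. Without both control 2 and HG_1 the values were 0.14 for FTH1 (edgeR adjusted p = 0.07) and 0.02 for FTL (edgeR adjusted p = 0.712). FTH1 and FTL together took 0.762 to 1.02% of the counts of a control library and 0.845 to 1.11% of those of an HG library.

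The FTH1 counts carry a limit that differs between libraries. FTH1 lies at chr11:61959718-61967660 on the minus strand, and 1267 of its 2030 annotated exonic bases (62.4%) also belong to BEST1, an RPE chloride channel gene on the plus strand. BEST1 had 8707 counts in control 1 and 18223 in control 4, which equal 4.55% and 9.66% of the FTH1 counts there, and between 24 and 300 counts in the other 8 libraries. Control 1 and control 4 were also the libraries with the lowest FTH1. With BEST1 counts added to FTH1, an alternative chosen after seeing the data, the log2 fold change of FTH1 was 0.10 (edgeR adjusted p = 0.609). Of the 100-base windows of the FTH1 transcript, 20.2% also occur in 8 other annotated genes, FTH1 pseudogenes among them, none with a row of its own. FTL lies at chr19:48965301-48966878 and shares 3.34% of its windows with FTLP3.

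NCOA4, the receptor that hands ferritin to autophagy, was at 237, 182, 214, 217 and 214 CPM in control 1 to 5 and at 193, 229, 225, 242 and 229 CPM in HG_1 to HG_5. The groups overlapped, with control 2 and HG_1 the lowest of all. The log2 fold change was 0.07 with a 95% interval of -0.10 to 0.25 (edgeR adjusted p = 0.607). NCOA4 lies at chr10:46005088-46030714.

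The exporter SLC40A1 was low in both groups. It had 78, 105, 124, 75 and 177 counts in control 1 to 5, or 2.37, 2.35, 2.98, 2.27 and 3.98 CPM. In HG_1 to HG_5 it had 99, 200, 189, 135 and 149 counts, or 2.57, 4.85, 4.21, 4.10 and 4.53 CPM. HG_1 lay among the controls, and the other 4 HG libraries stood just above the highest of them. The means were 2.79 ± 0.722 and 4.05 ± 0.878 CPM (SD, n = 5 each). The log2 fold change of 0.54 (standard error 0.212, 95% interval 0.05 to 1.03) did not pass (edgeR adjusted p = 0.12), although an exact two-sided permutation test of SLC40A1 alone gave p = 0.0476. It passed without HG_1 (0.67, adjusted p = 0.0297), without control 5 (0.70, adjusted p = 0.0485), and without both control 2 and HG_1 (0.61, adjusted p = 0.0426) in edgeR. HG_1 was the lowest HG library and control 5 the highest control, so leaving out either widens the gap. Under the other 18 alternative settings SLC40A1 did not pass. SLC40A1 lies at chr2:189560579-189583758.

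ACO1 encodes iron regulatory protein 1, which is the cytosolic aconitase when it holds an iron-sulfur cluster. It was at 202, 189, 201, 217 and 215 CPM in control 1 to 5 and at 226, 253, 251, 244 and 255 CPM in HG_1 to HG_5. The groups did not overlap, with HG_1 closest to the controls. The mean rose from 205 ± 11.3 to 246 ± 11.8 CPM (SD, n = 5 each), a log2 fold change of 0.26 (standard error 0.0505, 95% interval 0.14 to 0.38, edgeR adjusted p = 0.00575; exact permutation p = 0.00794). On the deposited FPKM values the difference on the log2(FPKM + 1) scale was 0.32 and did not pass (adjusted p = 0.342 with limma). The ratio of count to FPKM of ACO1 varied between libraries, from 0.939 to 1.66 of its median, with the highest value in HG_1, whereas that of TFRC stayed between 0.99 and 1.01. ACO1 lies at chr9:32384603-32454769.

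IREB2, which encodes iron regulatory protein 2, was at 78.6, 52.9, 70.0, 76.3 and 72.4 CPM in control 1 to 5 and at 51.3, 72.8, 66.0, 76.7 and 74.5 CPM in HG_1 to HG_5. The groups overlapped throughout, and control 2 and HG_1 were the lowest of the 10. The log2 fold change was -0.04 with a 95% interval of -0.33 to 0.26 (edgeR adjusted p = 0.893). IREB2 lies at chr15:78437431-78501456. It had the lowest GC content of the 9 tested members, 38.3%, while STEAP3 and FTL had the highest, 56.9% and 56.3%.

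**Figure D2:**
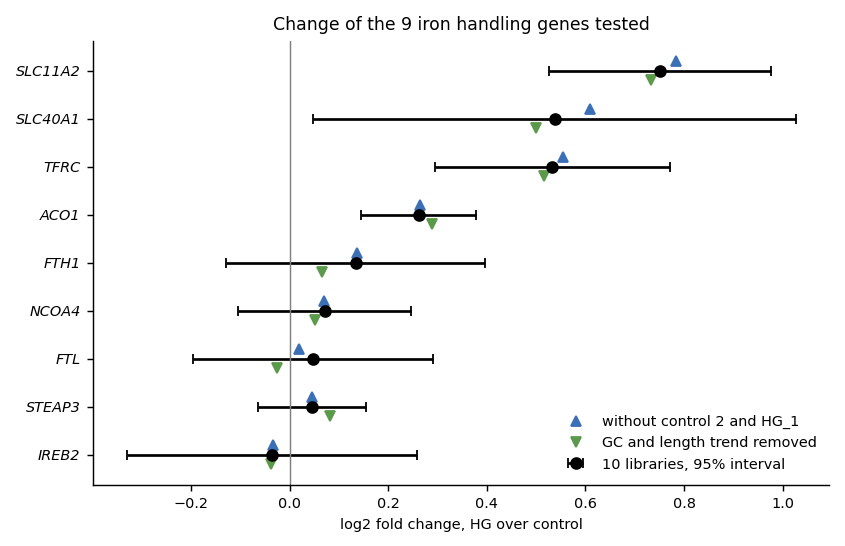
Log2 fold change of the HG over the control group (x axis) for the 9 tested iron handling genes, with black points and bars for all 10 libraries and their 95% intervals, blue triangles for the fit without control 2 and HG_1, and green triangles for the fit with the GC and length trend removed. SLC11A2, TFRC, ACO1 and SLC40A1 lie above 0 in all 3 fits, and the bars of FTH1, NCOA4, FTL, STEAP3 and IREB2 cross 0. The bar of SLC40A1 does not reach 0, but its edgeR adjusted p with all 10 libraries was 0.12.

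On the per-length scale of the deposited FPKM, the members spanned several orders of magnitude. In the control group mean FPKM ran from 6195 for FTH1 and 2104 for FTL through 65.1 for TFRC, 56.8 for NCOA4, 38.5 for ACO1, 26.5 for STEAP3, 23.4 for SLC11A2 and 10.3 for IREB2 to 0.770 for SLC40A1 and 0.00412 for TF. FTH1 ranked 2 and FTL ranked 18 among all rows of the control group. TFRC and NCOA4 were neighbours whose control ranges overlapped, at 53.3 to 71.2 FPKM and 47.3 to 63.3 FPKM, as did SLC11A2 and STEAP3, at 18.6 to 27.1 FPKM and 25.3 to 27.2 FPKM. In the HG group the members of these pairs no longer overlapped. TFRC was at 70.8 to 106 FPKM against 50.0 to 65.6 FPKM for NCOA4, and SLC11A2 at 30.4 to 42.0 FPKM against 26.2 to 28.5 FPKM for STEAP3. ACO1, at 31.9 to 46.9 FPKM in the control group, overlapped no other member there, and at 27.2 to 57.1 FPKM in the HG group it overlapped NCOA4, SLC11A2 and STEAP3. The overlap with SLC11A2 and STEAP3 rests on HG_1 alone, the library with the highest ratio of count to FPKM for ACO1, and the other 4 HG libraries were at 54.0 to 57.1 FPKM.

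Ratios of a pair of members within a library do not depend on how libraries are scaled. None of the 3 ratios passed after adjustment over the 3 tests. FTH1 to FTL was 3.09, 3.41, 3.40, 2.99 and 3.35 in control 1 to 5 and 3.38, 3.57, 3.51, 3.46 and 3.38 in HG_1 to HG_5, a log2 difference of 0.09 (exact permutation p = 0.0476, adjusted p = 0.0714), or 0.11 without control 2 (adjusted p = 0.0357, exact permutation). The lowest values were those of control 1 and control 4, the libraries with many BEST1 counts, and with BEST1 counts added to FTH1 they became 3.23 and 3.27 and the log2 difference 0.05. TFRC to FTH1 was 0.0562, 0.0365, 0.0572, 0.0670 and 0.0622 in control 1 to 5 and 0.0447, 0.0830, 0.0737, 0.0848 and 0.0828 in HG_1 to HG_5. Of the HG libraries only HG_1 overlapped the controls, and the log2 difference was 0.39 (exact permutation p = 0.143, adjusted p = 0.143). Without HG_1 it was 0.57 (adjusted p = 0.0476, exact permutation), without control 2 it was 0.25 (adjusted p = 0.286, exact permutation), and without both it was 0.42 (adjusted p = 0.0429, exact permutation). ACO1 to IREB2 was 2.58, 3.58, 2.87, 2.84 and 2.97 in control 1 to 5 and 4.40, 3.47, 3.80, 3.18 and 3.42 in HG_1 to HG_5. Control 2 was the library that overlapped the HG range, and the log2 difference was 0.30 (exact permutation p = 0.0317, adjusted p = 0.0714), or 0.37 without control 2 (adjusted p = 0.0357, exact permutation).

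**Figure D3:**
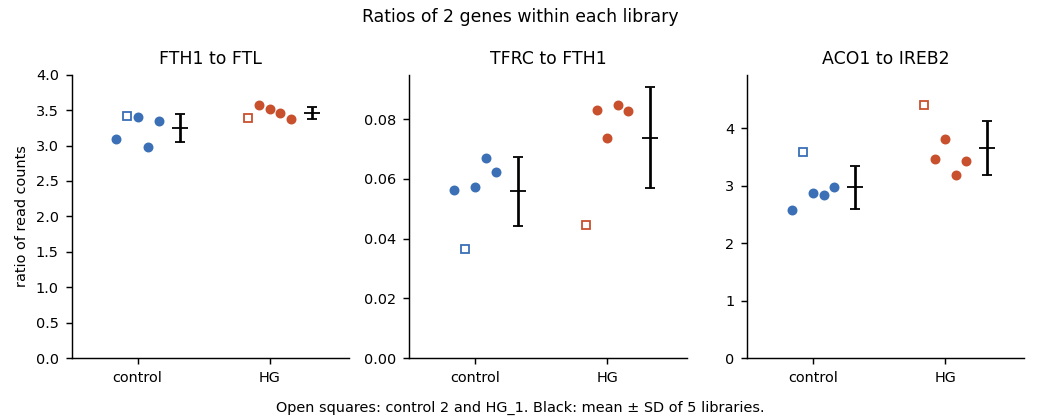
Ratio of the read counts of a pair of iron handling genes in each library (y axis, from 0), with control libraries in blue, HG libraries in red, control 2 and HG_1 as open squares, and the mean ± SD of 5 libraries in black. The means were 3.25 and 3.46 for FTH1 to FTL, 0.0558 and 0.0738 for TFRC to FTH1, and 2.97 and 3.66 for ACO1 to IREB2, with overlapping groups in each.

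The members were set beside 5 wider lists of iron genes. Of the 90 genes of these lists 78 were tested, and 17 were higher and 2 lower in the HG group (24.4% called, against 15.4% of all rows), with a median log2 fold change of 0.08. The lists were chosen with earlier results of these data known, so the counts are a description.

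Of 13 tested genes of iron uptake, reduction and other transport, 2 rose and 1 fell (23.1% called, against 15.4% of all rows). STEAP2 and STEAP1, relatives of STEAP3, rose by log2 fold changes of 0.73 (11.8 ± 0.497 to 19.4 ± 1.51 CPM, adjusted p = 0.000139) and 0.52 (adjusted p = 0.00472), each higher in 5 of 5 HG libraries than in any control by counts tested in edgeR. LRP1, an endocytic receptor that also takes up haem bound to haemopexin, fell (-0.24, edgeR adjusted p = 0.00246), and with the GC trend removed its value was -0.12 with an adjusted p of 0.0518. The ferric reductase CYBRD1 was at 0.09, the zinc and iron transporter SLC39A14 at -0.13 and the ferroxidase CP at 0.45 on the log2 scale, with adjusted p of 0.467, 0.24 and 0.334 from edgeR. None of 11 tested chaperones and regulators passed, FBXL5, which marks IREB2 for breakdown, among them (0.02, edgeR adjusted p = 0.89). In this list the iron chaperone PCBP1 and HFE, a partner of the transferrin receptors, were higher and BMP6, a growth factor, lower at an unadjusted p of 0.05 in edgeR, which makes 3 of 11 genes, and the same 3 passed with DESeq2. The shares of all rows were 14.1% higher and 14.4% lower at that unadjusted limit and 9.36% and 9.92% with DESeq2. All 3 were named after their values were seen.

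Among 5 tested transcripts of a list of other iron-responsive element genes, 3 rose (60% called, against 15.4% of all rows). Among them were EPAS1, which encodes HIF-2alpha (0.39, adjusted p = 0.00183), and PFN2, an actin binding protein (0.21, adjusted p = 0.0024), on the log2 scale and by edgeR. The pattern with 1 unpaired base was found in the 5′ UTR of EPAS1, and neither pattern in PFN2. Over all other genes with the full pattern in a 3′ UTR, 14 of 111 tested were higher and 12 lower (23.4% called), with a median log2 fold change of -0.00158. Over those with it in a 5′ UTR, 1 of 25 was higher and 2 lower (12% called). Both shares stand beside the 15.4% of all rows.

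Of 22 genes of haem synthesis, transport and breakdown, 6 rose and 2 fell (36.4% called, against 15.4% of all rows). Those that fell were LRP1 and the ABC transporter ABCB6. ABCB6 did not pass without control 2 and HG_1 (-0.34, edgeR adjusted p = 0.0814). HMOX1, the inducible haem oxygenase that frees iron from haem, rose from 49.1 ± 5.97 to 77.8 ± 9.22 CPM (log2 fold change 0.66, edgeR adjusted p = 0.00158). ALAS1, the first enzyme of haem synthesis, rose from 51.9 ± 2.04 to 82.1 ± 3.94 CPM (log2 fold change 0.66, edgeR adjusted p = 2.86e-05). BLVRB, a biliverdin reductase, and ABCG2, which exports porphyrins, rose by 0.57 each, with adjusted p of 0.0176 and 0.00417 from edgeR. For all 4 genes every HG library was above every control library. HMOX1 and the ferritin genes are all known targets of the transcription factor NRF2. Of 8 other targets 2 rose, SLC7A11 (0.57, adjusted p = 0.00993) and OSGIN1 (0.55, adjusted p = 0.0306), both by edgeR (25% called, against 15.4% of all rows).

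Of 28 genes of mitochondrial iron and iron-sulfur clusters, 6 rose and none fell (21.4% called, against 15.4% of all rows). At an unadjusted p of 0.05 in edgeR 11 were higher and 0 lower (14.1% and 14.4% of all rows), and with DESeq2 7 and 0 (9.36% and 9.92% of all rows). On the log2 scale, CISD1, an outer membrane iron-sulfur protein, changed by 0.40 (adjusted p = 0.00829), FDXR, which passes electrons to ferredoxin, 0.37 (adjusted p = 0.0435), CIAO2A, which serves cytosolic cluster assembly, 0.36 (adjusted p = 0.000966) and HSPA9, the mitochondrial chaperone, 0.30 (adjusted p = 0.00146), all by edgeR. The groups overlapped for FDXR alone of these.

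**Figure D4:**
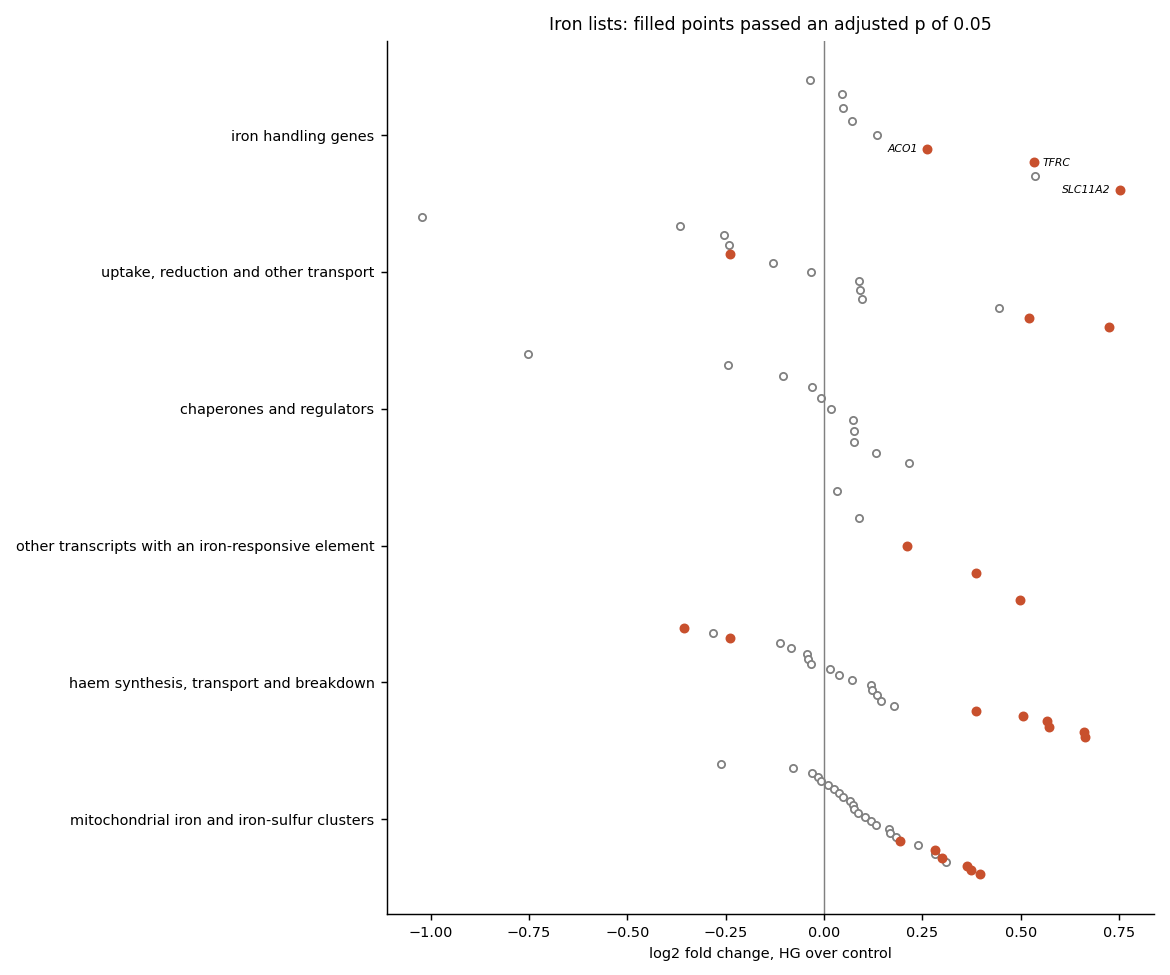
Log2 fold change of the HG over the control group (x axis) for each tested gene of the 9 iron handling genes and of the 5 wider lists (rows, with genes ordered by value within a row). Filled red points passed an adjusted p of 0.05 in edgeR, and open points did not. Among the filled points are 3 of 9 iron handling genes and 6 of 28 genes of mitochondrial iron and iron-sulfur clusters.

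The genes whose levels moved most like SLC11A2 over the 10 libraries were CYP51A1, MME, STRIP2, TMEM38B and FADS1. The measure was the root mean square difference of mean-centred log2 CPM, for which the median over 13420 genes was 0.446. It was 0.0379 for CYP51A1, a sterol demethylase, 0.0753 for the peptidase MME, 0.0773 for STRIP2, 0.0858 for TMEM38B, an ion channel of the endoplasmic reticulum, and 0.0920 for the fatty acid desaturase FADS1. Their log2 fold changes were between 0.68 and 0.74, beside 0.75 for SLC11A2.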

How the data were processed

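The authors deposited raw read counts, 1 whole number for each gene in each library, and FPKM values, which they had scaled for length and depth. The submitters' processing notes name fastp 0.20.1, HISAT2 2.2.1 and GRCh38. The counting program and the annotation are not given in the sources used here. Control columns were matched to samples and HG columns to the group only.

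Counts were tested with edgeR 4.0.16 in R 4.3.3 (default filter on low counts, 14936 of 22626 rows kept, TMM, quasi-likelihood test, Benjamini-Hochberg adjustment over all rows tested, limit 0.05). CPM are counts scaled by the TMM library size, and their log2 used a prior count of 2. FPKM were tested with limma 3.58.1 as log2(FPKM + 1) and log2(FPKM + 0.1), scales that understate the change of low genes. Single genes and ratios were tested with exact two-sided permutation tests. Alternatives were DESeq2 1.42.0, other size factors, filters and tests, libraries left out, and offsets for GC content and length (lowess span 0.3, 13538 rows). The steps were tested on simulated counts. The labels do not say that libraries came from separate cultures, so p-values measure the spread between these libraries, which may be technical.

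Total counts were between 32448991 and 45864176 per library. Positions, exons and UTRs come from GENCODE release 29 (GRCh38). Named genes are the 10 members, in each list of the genes that passed up to 4 with the largest change in size, always CYBRD1, SLC39A14, FBXL5, HMOX1 and CP, TXNIP as a check of the labels, and the 5 genes most like the member with the largest change that passed. Other genes were named after their values were seen. The members and lists were chosen with earlier results of these data known. The totals of the lists include 2 genes whose own values are not given here.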

Additional observations from a re-analysis of the deposited data

Results flagged for a closer look

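Of 26 groups of 5 values, 5 had 1 value well outside the range of the rest, which chance gives in about 1 in 20 independent groups. The groups share libraries, and the ratios repeat genes that are also counted alone. The number flagged therefore cannot be set against that rate. All 5 values belong to HG_1 or control 2, the libraries whose levels rose with GC content. In HG_1, the FTH1 level was 8871 CPM, beside 6476 to 6972 in the rest of the HG group, FTL at 2623 CPM against 1874 to 1985, and TFRC at 396.3 CPM against 513.9 to 556. The ratio of TFRC to FTH1 in HG_1 was 0.04467 against 0.07371 to 0.08478. In control 2, the FTL level was 2377 CPM, and the rest of the control group had 1836 to 1936. The part of the GC trend in these values was not tested.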

How the results depend on the processing

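TFRC and SLC11A2 rose and passed under all 21 alternatives, with log2 fold changes of 0.48 to 0.61 and 0.67 to 0.80 when each library was left out in turn. ACO1 passed under 19, at 0.24 to 0.29 with each library left out. It did not pass with limma on FPKM (0.32 and 0.33), where 2 members passed. The number of members that passed was 3 to 4 with a library left out, 4 without both control 2 and HG_1, and 1 where a fold change above 1.5 was also required. For the wider lists, 19 genes passed, 15 to 23 with a library left out, 30 without both libraries, and 3 with the fold change limit. Over all rows, 2303 passed, 1648 to 2993 with a library left out, 4035 without both libraries and 3780 with the GC trend removed. The log2 difference of the ratios ranged, with a library left out, from 0.0638 to 0.1118 for FTH1 to FTL, from 0.25 to 0.57 for TFRC to FTH1 and from 0.23 to 0.37 for ACO1 to IREB2. Without both libraries, TFRC to FTH1 (0.42) and ACO1 to IREB2 (0.30) passed, each with an adjusted p of 0.0429 from the exact permutation test. Control 2 and HG_1 are the libraries that stood apart in these data, so leaving out both rests on the data in every fit. The alternatives that leave out both libraries for the ratios, add BEST1 counts to FTH1 or use the column number as a block were chosen after seeing the data. The cause was not tested. The labels pair no libraries, and only the column names give both groups the numbers 1 to 5. Deviations of same-numbered libraries from their group means correlated between -0.0656 and 0.0392, and no control library correlated best with its own number. With the column number as a replicate block in edgeR, the same 3 members passed, and 13 genes of the wider lists and 1071 of all rows. Depth limits TF, which was too low to be tested.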
